A study of Octopus bimaculoides with 16 samples.

Results

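The eye and the optic lobe of Octopus bimaculoides, successive stations of the visual pathway, were compared gene by gene. Each tissue was sequenced as 1 bulk RNA library on 2 lanes, so that 4 of the 16 samples and 2 of the 8 libraries of the study entered the comparison. The labels call the samples Eye and brain tissue from the optic lobe; they give no animal, age, sex or treatment, and manual dissection is the preparation stated for both. Statocyst (the organ of balance), olfactory organ, mantle skin, sucker rim cells and whole sucker cup (an automated and a manual library) served as context. Genes were taken when they reached at least 10 CPM (reads scaled to a library total of 1000000) in either tissue and differed at least 4-fold between them on log2(CPM + 1). Of 15842 genes measured, 8536 reached 10 CPM in either, and 2022 of these passed. They are called eye-high and lobe-high genes here. The same values chose the genes and give their ratios, so the direction of each gene is fixed by the rule.

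A cephalopod eye is a camera eye with a lens and a retina of rhabdomeric photoreceptors. The retina holds no layers of interneurons as in vertebrates: the photoreceptor axons leave the back of the eye and make their first synapses in the optic lobe, a large brain lobe of neurons and neuropil. An eye dissected whole can hold photoreceptors and their supporting cells, lens-forming cells, muscle, connective tissue and pigmented surface. The deposited table names genes by LOC identifiers, and the reference table used for names (assembly ASM119413v2) gives a functional name to 2 of them. Photoreceptor, neuron and muscle markers could therefore not be looked up by name, and the labels of both tissues were not checked against markers. In bulk tissue, fewer cells of a type and less RNA per cell cannot be told apart.

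The eye library held 12241705 reads and the optic lobe library 5373482. A single read was worth 0.0817 CPM in eye and 0.186 CPM in optic lobe, and folds against a gene without a read in optic lobe were taken against a floor of 3 reads, 0.558 CPM. The exact upper limit of 0 reads there was 0.686 CPM, so that the exact lower limit printed beside such a fold lies below it. With 1 library per tissue no test between the tissues was possible, and all intervals are 95% intervals of counting error. The whole sucker cup, the one tissue with more than 1 library, had 3 of 8035 genes past the same rule between its automated and manual libraries (0.0373%). That pair may be technical, and it does not measure variation between animals or dissections.

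Most genes that differed were higher in the eye. Eye-high genes numbered 1767 (20.7% of the genes tested) and lobe-high genes 255 (2.99%), so that 87.4% of the differing genes were higher in eye. The remaining genes were more evenly spread, with 4352 within 2-fold, 1190 between 2-fold and 4-fold higher in eye and 972 between 2-fold and 4-fold higher in optic lobe. The median log2 ratio of eye to optic lobe over all 8536 genes was 0.35. With median-of-ratios size factors it became -0.03, a shift of -0.38, and the counts became 1468 eye-high and 520 lobe-high (73.8% and 26.2% of the calls). These 1468 were all among the 1767, and the 520 included all 255. With library totals that left out the 10 most abundant genes of each tissue, 389 genes were lobe-high.

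The sizes of the differences were unlike in the 2 directions. Eye-high genes had a median log2 ratio of 3.76. At least 16-fold was reached by 784 of them (44.4%), 64-fold by 298, 256-fold by 120 and 1024-fold by 35. Lobe-high genes had a median log2 ratio of -2.27, 21 were at least 8-fold higher in optic lobe, 2 at least 16-fold and none 64-fold. In the tissue where they were low, the sets also stood at different levels. Of the eye-high genes, 398 had no read in optic lobe and 787 (44.5%) lay under 1 CPM there. No lobe-high gene was without a read in eye, 2 lay under 1 CPM and 192 of 255 (75.3%) had at least 10 CPM there. After the eye library had been thinned to the depth of the optic lobe library, again no lobe-high gene was without a read in eye. In that setting 395 eye-high genes had no read in optic lobe. The optic lobe reads were not thinned, so this count does not test the effect of depth.

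**Figure D1:**
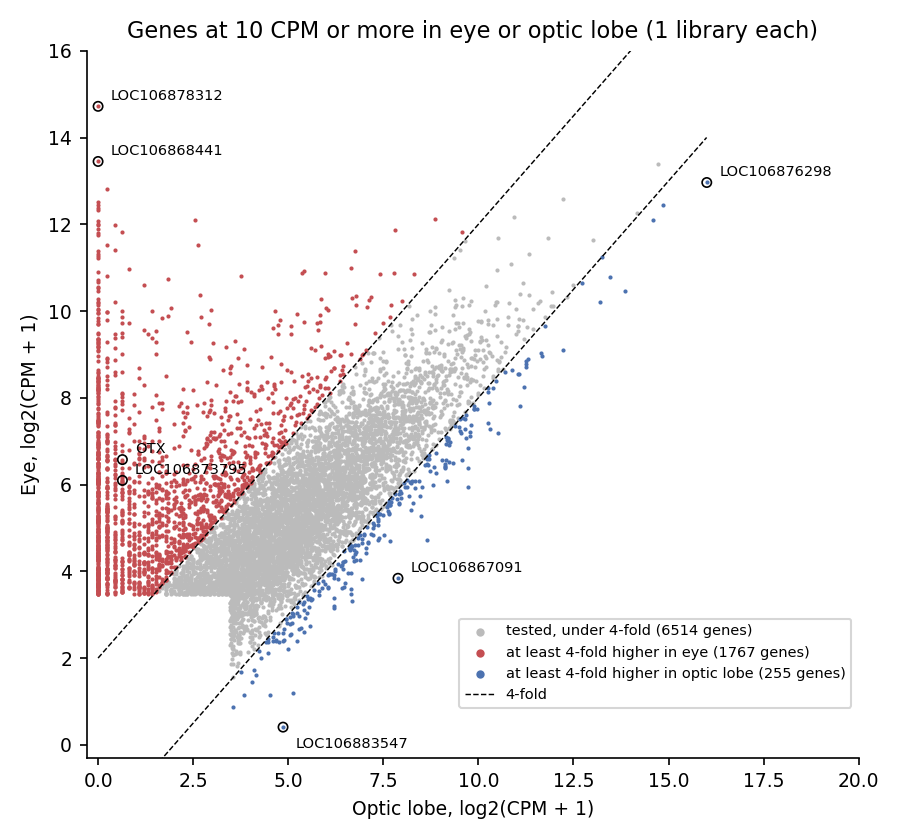
Level of each of the 8536 genes with at least 10 CPM in either tissue, as log2(CPM + 1) in optic lobe (x) and eye (y), 1 library each; dashed lines mark 4-fold. The 1767 eye-high genes (red) reach the left edge, where optic lobe has no read, while the 255 lobe-high genes (blue) stay close to the lower 4-fold line.

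Lobe-high genes were more often abundant than the genes tested, while eye-high genes were near the background at 50 CPM. That level was reached by 196 of 255 lobe-high genes in optic lobe and by 895 of 1767 eye-high genes in eye. Among the 8536 genes tested, 4063 reached it in either tissue. The median level of eye-high genes was 51.2 CPM in eye and 1.49 CPM in optic lobe. At least 100 CPM was reached in eye by 543 of them and 1000 CPM by 71. Lobe-high genes had a median of 162 CPM in optic lobe and 28.1 CPM in eye, and in optic lobe 159 of them reached 100 CPM and 30 reached 1000 CPM. Of the 100 most abundant genes of the eye, 59 were eye-high and 8 were lobe-high. Of the 100 most abundant genes of the optic lobe, 30 were lobe-high and none was eye-high.

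As shares of reads, the eye-high genes took 38.1% of the eye library (38.07 to 38.12%) and 1.50% of the optic lobe library (1.49 to 1.51%). The lobe-high genes took 27.2% of the optic lobe library (27.14 to 27.22%) and 4.44% of the eye library (4.43 to 4.45%). Reads of the optic lobe were the more concentrated: the 10 most abundant genes of the whole library took 21.9% of its reads, against 9.24% in eye. Within the sets, 5 of the 255 lobe-high genes made up at least 50% of their set's reads. For the 1767 eye-high genes this took 65. The 10 most abundant lobe-high genes took 18.0% of all optic lobe reads, and the 10 most abundant eye-high genes took 8.03% of all eye reads.

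**Figure D2:**
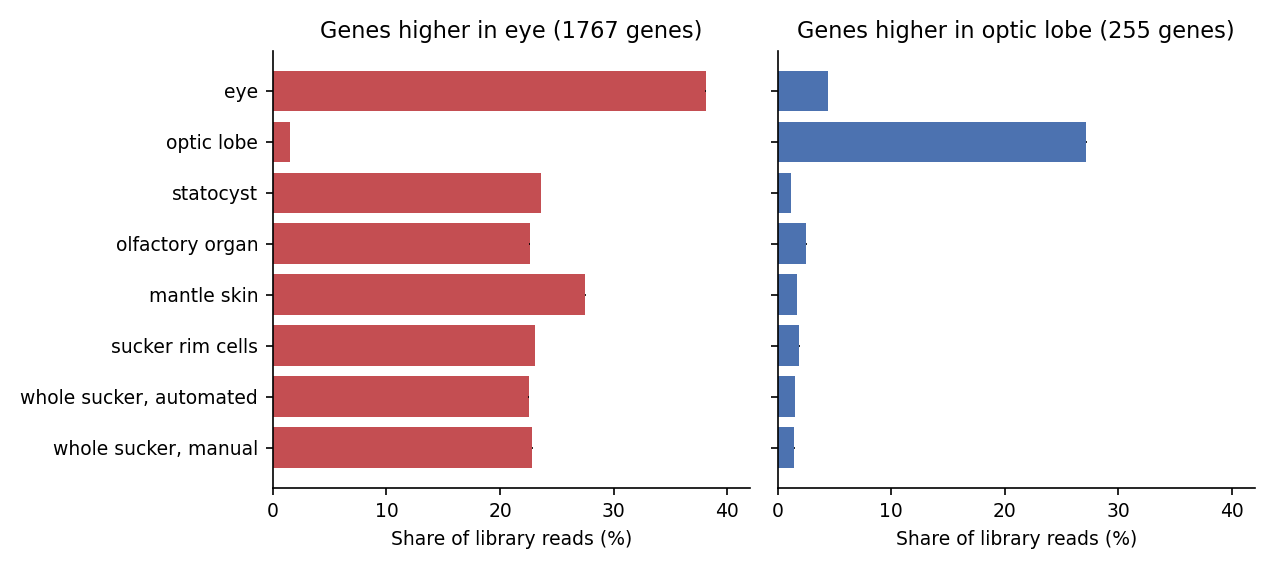
Share of each library's reads (%) taken by the 1767 eye-high genes (left) and the 255 lobe-high genes (right), with 95% Wilson intervals of counting error, which are narrower than the bar edges. Eye-high genes take between 22.5% and 27.5% of the 6 other libraries and 1.50% of optic lobe. Lobe-high genes take at most 2.55% of those 6. The sets hold 20.7% and 2.99% of the genes tested, and the values in eye and optic lobe follow from the rule.

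The 5 genes with the largest ratios were also the 5 most abundant eye-high genes. LOC106878312 had 26960.4 CPM in eye (26869 to 27053), or 2.70% of its reads, and no read in optic lobe. Against the floor of 3 reads in optic lobe this was at least 48290.4-fold higher, with an exact lower limit of 39272. In the 6 other libraries it lay between 0.140 CPM in olfactory organ and 2.97 CPM in statocyst. LOC106868441 had 11172 CPM in eye and no read in optic lobe, at least 20011-fold above the floor (exact lower limit 16274), and at most 7.98 CPM elsewhere, in statocyst. LOC106871441 had 7171 CPM in eye and a single read in optic lobe, a ratio of 38535 with a wide interval from 6916 to 1522080. These 3 genes were abundant in eye and had at most 7.98 CPM in each of the 7 other libraries.

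LOC106869778 had 5819.9 CPM in eye, no read in optic lobe and at most 0.603 CPM elsewhere, in the manual whole sucker library. LOC106870488 had 5613 CPM in eye and no read in optic lobe, at least 10053-fold above the floor (exact lower limit 8175), and its next level was 11.5 CPM in sucker rim cells. LOC106869775 had 5309 CPM in eye and no read in any other library. LOC106870422 came close, with 5169 CPM in eye, no read in optic lobe and at most 0.132 CPM elsewhere, in statocyst. In all, 97 eye-high genes lay under 1 CPM in the 6 libraries that the rule did not use. The share of such genes among all genes tested was not counted.

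Other eye-high genes were far more abundant outside the visual tissues. For LOC106873795 the eye held 67.4 CPM (62.9 to 72.2) against 3 reads in optic lobe (0.558 CPM), and the ratio was 121 (41.2 to 587). Mantle skin held 38543 CPM of it, the automated and manual whole sucker libraries 22601 and 20696 CPM, sucker rim cells 13440.3 CPM and olfactory organ 9783 CPM, while statocyst held 0.396 CPM. Its eye level was thus a small part of its level at the body surface, and whether skin or other surface tissue was taken with the eye was not tested. LOC106881140 had 26.7 CPM in eye and no read in optic lobe, at least 47.8-fold above the floor (exact lower limit 38.7). Its level in statocyst was 9144 CPM, and in the other libraries it lay between 9.41 CPM in mantle skin and 87.1 CPM in sucker rim cells.

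OTX (LOC106873941), a homeobox transcription factor gene that in other animals acts in head, brain and photoreceptor development, was eye-high. The eye held 1155 reads of it (94.3 CPM) against 3 in optic lobe, which makes the ratio 169 (57.7 to 821). Statocyst had 29.9 CPM of OTX, and the other libraries had between 0.209 CPM in mantle skin and 3.09 CPM in olfactory organ. Hedgehog (LOC106871116), a gene for a secreted developmental signal, did not reach 10 CPM in either tissue, with 21 reads in eye (1.72 CPM) and 2 reads in optic lobe (0.372 CPM). Both were described for their names, after earlier results were known.

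The most abundant lobe-high genes were present in eye as well. LOC106876298, the most abundant gene of the optic lobe, had 65721 CPM there, or 6.57% of its reads, and 7983 CPM in eye. The ratio of optic lobe to eye was 8.23 (8.17 to 8.29). Mantle skin had 104 CPM of it, statocyst 23.0 CPM, and the other libraries had at most 2.73 CPM. The gene was therefore abundant in both visual tissues and low in the rest. LOC106878764 had a similar order of levels, with 11249 CPM in optic lobe, 1750.3 CPM in eye, 26.1 CPM in mantle skin and at most 7.78 CPM elsewhere, and a ratio of optic lobe to eye of 6.43 (6.33 to 6.53).

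The next most abundant lobe-high genes reached further tissues. LOC106875676 had 29735 CPM in optic lobe and 5564 CPM in eye, a ratio of 5.34 (5.30 to 5.39). Its level was 429.6 CPM in statocyst and lowest, at 2.30 CPM, in sucker rim cells. LOC106869894 had 24787 CPM in optic lobe and 4375 CPM in eye, a ratio of 5.67 (5.61 to 5.72). It lay between 318 and 568 CPM in the skin, olfactory and sucker libraries and at 38.4 CPM in statocyst. LOC106870273 had 14799 CPM in optic lobe and 1401 CPM in eye, a ratio of 10.6 (10.4 to 10.7). Sucker rim cells had nearly the eye level, 1271 CPM, and statocyst had 10.6 CPM.

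The 5 genes with the largest ratios in the direction of the optic lobe were not among its 5 most abundant lobe-high genes. LOC106883547 had 28.1 CPM in optic lobe (151 reads) and 4 reads in eye (0.327 CPM), a ratio of 86.0 (32.9 to 320). LOC106882323 had 33.7 CPM in optic lobe and 16 reads in eye (1.31 CPM), a ratio of 25.8 (15.4 to 46.1). Both were low everywhere else, at most 1.12 CPM for the first and 3.01 CPM for the second, each in olfactory organ. LOC106867091 had 235 CPM in optic lobe, 13.3 CPM in eye and 10.7 CPM in statocyst, a ratio of optic lobe to eye of 17.7 (15.0 to 20.9). The ratio was 15.7 (14.0 to 17.8) for LOC106870704, with 400.1 CPM in optic lobe and 25.4 CPM in eye. LOC106869741 had 848 CPM in optic lobe, 60.1 CPM in eye and at most 7.53 CPM elsewhere, in mantle skin, a ratio of 14.1 (13.05 to 15.3).

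Of the lobe-high genes, 3 lay under 1 CPM in the 6 other libraries, again without a count over all genes tested. LOC106868211 had 149 CPM in optic lobe and 31.2 CPM in eye, with at most 0.209 CPM elsewhere. LOC106880336 had 15.4 CPM in optic lobe and 1.72 CPM in eye, and LOC106880385 had 12.5 and 2.21 CPM. All 3 were thus detected in both visual tissues, with the eye second. With a pseudocount of 5 CPM the log2 ratio of LOC106880336 became -1.61 and that of LOC106880385 -1.28, short of 4-fold. At the other end, LOC106881791 was the lobe-high gene with the highest level in most other libraries: 6737 CPM in optic lobe, 1592 CPM in eye, and between 1186 CPM in olfactory organ and 2331 CPM in statocyst. LOC106878154 had 2437 CPM in optic lobe and 436 CPM in eye but was higher still in olfactory organ, at 2649 CPM.

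**Figure D3:**
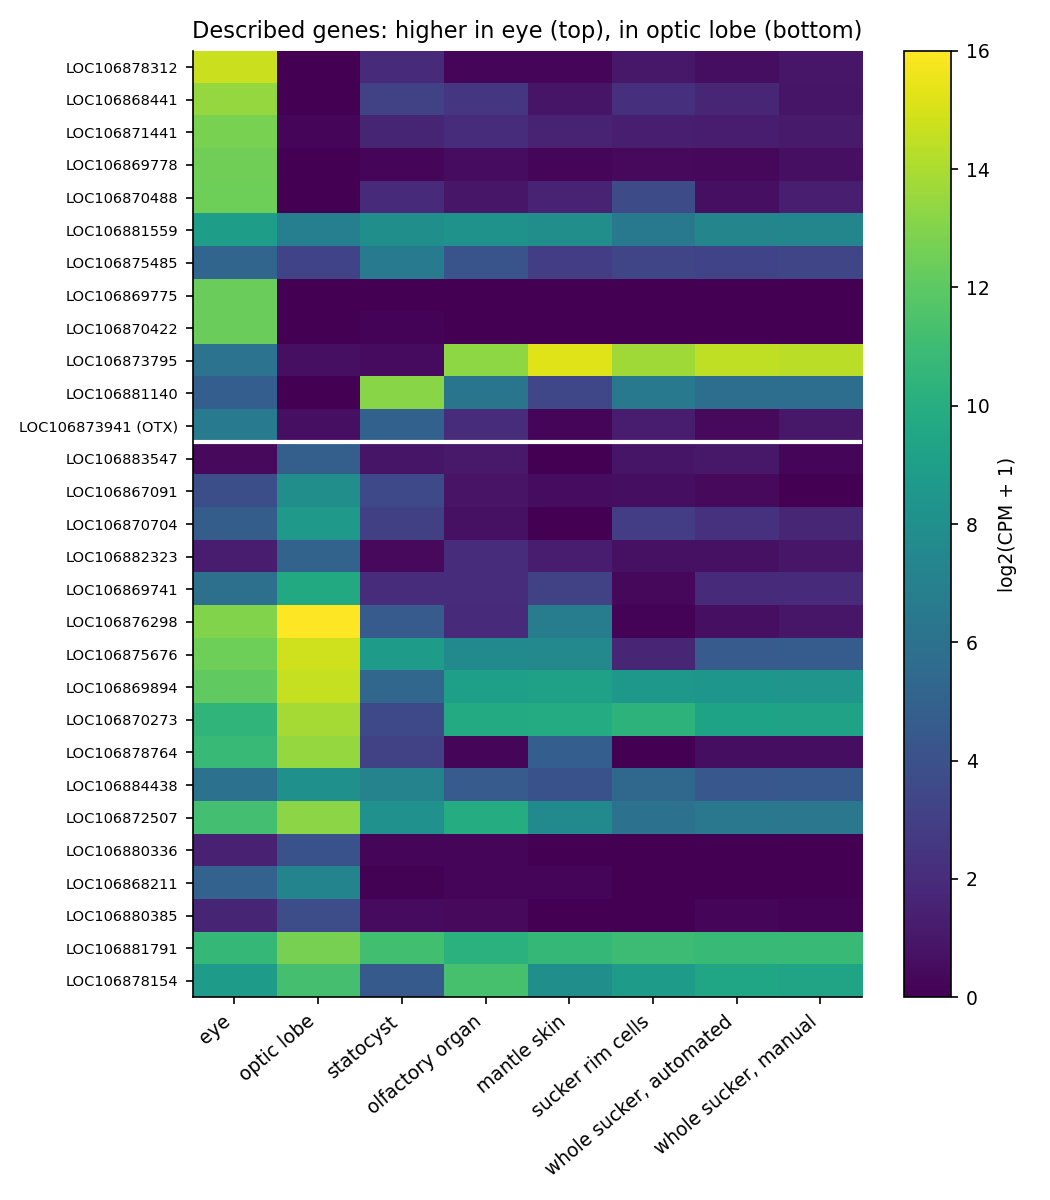
Levels of 29 described genes as log2(CPM + 1) in the 8 libraries (colour), with 12 eye-high genes above the white line and 17 lobe-high genes below it. The abundant eye-high genes are dark in the optic lobe column, as LOC106878312 with no read, while the abundant lobe-high genes are bright in the eye column, as LOC106876298 with 7983 CPM.

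Genes at the 4-fold threshold differed little across it. LOC106881559, with 472 CPM in eye and 117 CPM in optic lobe, and LOC106875485, with 36.5 and 8.37 CPM, lay just inside on the eye side. LOC106872571, with 52.1 and 12.3 CPM, and LOC106869093, with 26.1 and 5.77 CPM, lay just outside. On the other side, LOC106884438 (263 CPM in optic lobe, 64.9 CPM in eye) and LOC106872507 (9726 and 2426 CPM) lay just inside. LOC106871268 (25.9 and 5.72 CPM) and LOC106880689 (317 and 78.6 CPM) lay just outside. A count at 1 threshold is therefore no sharp boundary, and 1558 eye-high and 187 lobe-high genes had a counting interval that lay wholly beyond 4-fold.

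The libraries outside the comparison were used to see which of the visual tissues stood apart from the rest. Eye and optic lobe were each set against the median log2(CPM + 1) of the 5 other tissues, 4 of which (sucker rim cells, whole sucker cup, olfactory organ and mantle skin) are surface tissues. Over all genes tested, the median difference from the other tissues was -0.32 for optic lobe and 0.05 for eye. The division below was not repeated with size factors, so such an offset of the whole library is part of it. Of the 1767 eye-high genes, 545 (30.8%) were at least 4-fold above that median in eye while optic lobe was not 4-fold below it. The larger group, 850 genes (48.1%), was at least 4-fold below the median in optic lobe while the eye was not 4-fold above it. Both held for 122 genes, and neither for 250. Among all 8536 genes tested, optic lobe was at least 4-fold below the median for 1334 (15.6%). Eye was at least 4-fold above the median for 1027 (12.0%). Eye-high genes supplied 972 of the 1334 and 667 of the 1027, so these shares are not independent of the set. Optic lobe was the lowest of all 8 libraries, ties included, for 1368 eye-high genes, and eye was the highest of 8 for 647. The rule favours both outcomes, and neither was counted over all genes tested.

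The groups were formed from the levels in eye, optic lobe and the other tissues, so their median levels partly follow from that choice. The 545 genes with a high eye had a median of 77.8 CPM in eye, 12.8 CPM in statocyst, 0.558 CPM in optic lobe and at most 1.96 CPM in the other libraries. They took 20.9% of the eye reads. The 850 genes with a low optic lobe had medians of 37.1 CPM in eye, 38.0 CPM in statocyst, between 63.4 and 70.3 CPM in the 5 libraries of surface tissues and 1.30 CPM in optic lobe, and they took 8.56% of the eye reads. Their median was lower in eye than in the surface libraries. The 122 genes with both had the largest median log2 ratio of eye to optic lobe, 6.16, and a median of 143 CPM in eye.

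Lobe-high genes divided differently. A high optic lobe without a low eye was found for 187 of 255 (73.3%), a low eye without a high optic lobe for 12 (4.71%), both for none and neither for 56. Among all 8536 genes tested, optic lobe was at least 4-fold above the median for 613 (7.18%). Eye was at least 4-fold below it for 304 (3.56%), near the share among lobe-high genes. The lobe-high genes are part of these totals. The 187 genes had medians of 202 CPM in optic lobe, 39.6 CPM in eye and between 8.08 and 15.8 CPM in the other libraries. These medians too partly follow from how the group was formed. Of the 255, 60 (23.5%) were at least 4-fold above the median of the other tissues in eye as well, against 12.0% of all genes tested. Optic lobe was the highest of 8 libraries for 233 lobe-high genes, and eye was the lowest of 8 for 10. Here too the rule favours both outcomes, and neither was counted over all genes tested.

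**Figure D4:**
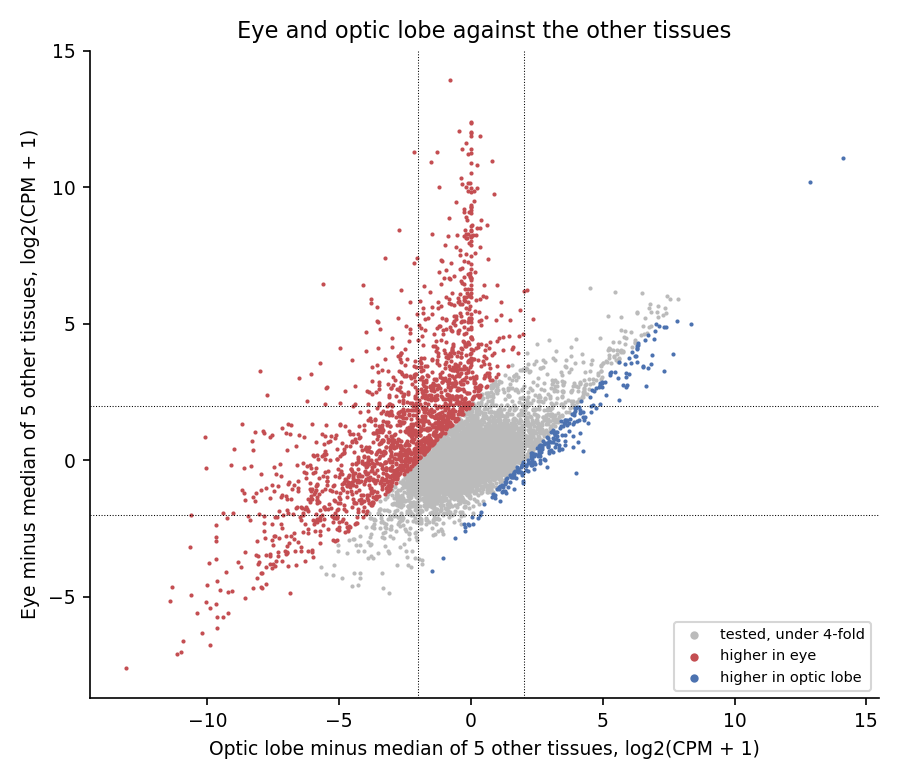
Level in optic lobe (x) and eye (y) minus the median of the 5 other tissues, both on log2(CPM + 1), for the 8536 genes tested; dotted lines mark 4-fold. Eye-high genes (red) form an upward arm, high in eye, and a leftward arm, low in optic lobe, and lobe-high genes (blue) lie to the right, where 60 of 255 are also 4-fold above the other tissues in eye.

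The breadth of expression gave the same genes a further order. Of the eye-high genes, 704 (39.8%) had at least 10 CPM in all 5 other tissues, against 67.2% of all genes tested, and 230 (13.02%) had it in none, against 5.30%. Lobe-high genes departed in the same direction, with 86 (33.7%) in all 5 and 44 (17.3%) in none. Those 230 held 13.8% of the eye reads, and their median log2 ratio was 5.86. For 262 eye-high genes exactly 1 other tissue reached 10 CPM, and for 227 of these (86.6%) it was statocyst, against 76.3% of the 607 genes tested with exactly 1 such tissue. Among the non-visual tissues, statocyst held the highest level of 871 eye-high genes (49.3%), near its share of all genes tested (45.7%). Lobe-high genes were highest outside the visual tissues in olfactory organ for 104 (40.8%, against 24.2% of all genes tested), in sucker rim cells for 59 (23.1%, against 15.6%) and in statocyst for 54 (21.2%). The 86 lobe-high genes with at least 10 CPM in all 5 other tissues took 12.97% of the optic lobe reads.

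Genes that mark either visual tissue against the 5 non-visual tissues were then followed into the other visual tissue, a choice that does not use the difference between eye and optic lobe. In optic lobe, 290 genes with at least 10 CPM were at least 4-fold above every non-visual tissue. All 290 had reads in eye, 257 (88.6%) had at least 10 CPM there and 1 lay under 1 CPM. The share of 88.6% was not raised: optic lobe had 6299 genes at that level, marking or not, and eye shared 5884. For the 290 genes, the log2 ratio of optic lobe to eye had a median of 1.92. It lay between 1.06 and 2.81 from the 10th to the 90th percentile. They took 35.8% of the optic lobe reads and 8.01% of the eye reads, and 162 of them differed by less than 4-fold. Because these genes were taken where optic lobe was high, a ratio above 0 on the log2 scale is favoured by the choice.

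In eye, 359 genes with at least 10 CPM were at least 4-fold above every non-visual tissue. Here the choice favours the eye. Their log2 ratio of eye to optic lobe had a median of 5.22 and ranged from -1.91 to 9.74 between the 10th and 90th percentiles. Of the 359, 258 were eye-high, 76 were within 4-fold and 25 were lobe-high. Optic lobe had under 1 CPM for 196 of them (54.6%), with no read for 132, and at least 10 CPM for 125 (34.8%). The other 38 lay between 1 and 10 CPM there. Eye had 8121 genes at 10 CPM or more, marking or not, and optic lobe shared 5884, a larger part than 34.8%. Genes marking the eye thus spread widely in their optic lobe level. Of the 290 genes marking the optic lobe, 289 had at least 1 CPM in eye, a share not counted over unmarked genes. Both visual tissues were at least 4-fold above all 5 others for 90 genes, of which 25 were lobe-high, 65 passed neither rule and none was eye-high. These 90 genes took 21.4% of the optic lobe reads and 4.24% of the eye reads. Whether optic lobe tissue was taken with the eye was not tested.

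Many of the genes lay next to each other in the gene order of the reference assembly, which was used for neighbourhood only since the build behind the values is not given. Of 1616 eye-high genes placed on its chromosomes, 526 (32.5%) had an eye-high gene as a direct neighbour among the measured genes. The same was true of 20.8% of the 6080 tested genes that were neither eye-high nor lobe-high. Of 235 placed lobe-high genes, 36 (15.3%) had a lobe-high neighbour, against 3.31% of the 6080. The 1616 placed eye-high genes formed 53 runs of at least 3 direct neighbours and the 235 placed lobe-high genes formed 2. A larger set forms more runs by number alone, so these counts do not compare the directions.

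A run of 11 eye-high neighbours took 2.24% of the eye reads. In 9 of its genes, from LOC106877286 to LOC106869781, every other library lay under 1 CPM and optic lobe had no read. LOC106869778 (5819.9 CPM), LOC106869775 (5309 CPM), LOC106869780 (4134 CPM) and LOC106869776 (3577 CPM) were the most abundant in eye, and LOC106869768 (77.2 CPM) the least abundant of the 9. Outside the eye, LOC106869775, LOC106869780, LOC106869767 and LOC106869768 had no read in any library. The remaining members of the run, LOC106883122 and LOC106883123, had more in statocyst (99.6 and 202 CPM) than in eye (70.7 and 55.9 CPM). With median-of-ratios size factors 10 of the 11 genes passed.

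The longest run held 13 eye-high genes, of which 9 lay under 1 CPM in all 7 other libraries. Within it, LOC106878678 had 910.1 CPM in eye and LOC106877428 had 1015 CPM. Between them, LOC106877427 had 226 CPM in eye and 3104 CPM in sucker rim cells, with 0.930 CPM in optic lobe, so genes of unlike profile stood side by side. A run of 6 genes, from LOC106875831 to LOC106875837, had no read of any of the 6 in optic lobe and 62.1 to 3467 CPM in eye. Its most abundant gene, LOC106875839, had 24.7 CPM in olfactory organ and 19.9 CPM in mantle skin.

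The longest run of lobe-high genes held 5 and included the most abundant gene of the optic lobe. LOC106876298 stood beside LOC106876289 (162 CPM in optic lobe, 32.4 CPM in eye), LOC106876290 (9381 and 1175 CPM), LOC106876287 (608 and 125 CPM) and LOC106876288 (577 and 66.2 CPM). The log2 ratios of the 5 lay between -2.27 and -3.10, and together they took 7.64% of the optic lobe reads. All 5 had more in optic lobe than in any other library, and all had at least 32.4 CPM in eye. No sequences were used here, so whether neighbours are near-identical copies was not examined, and levels of single genes in a run are uncertain where reads could be split between copies.

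**Figure D5:**
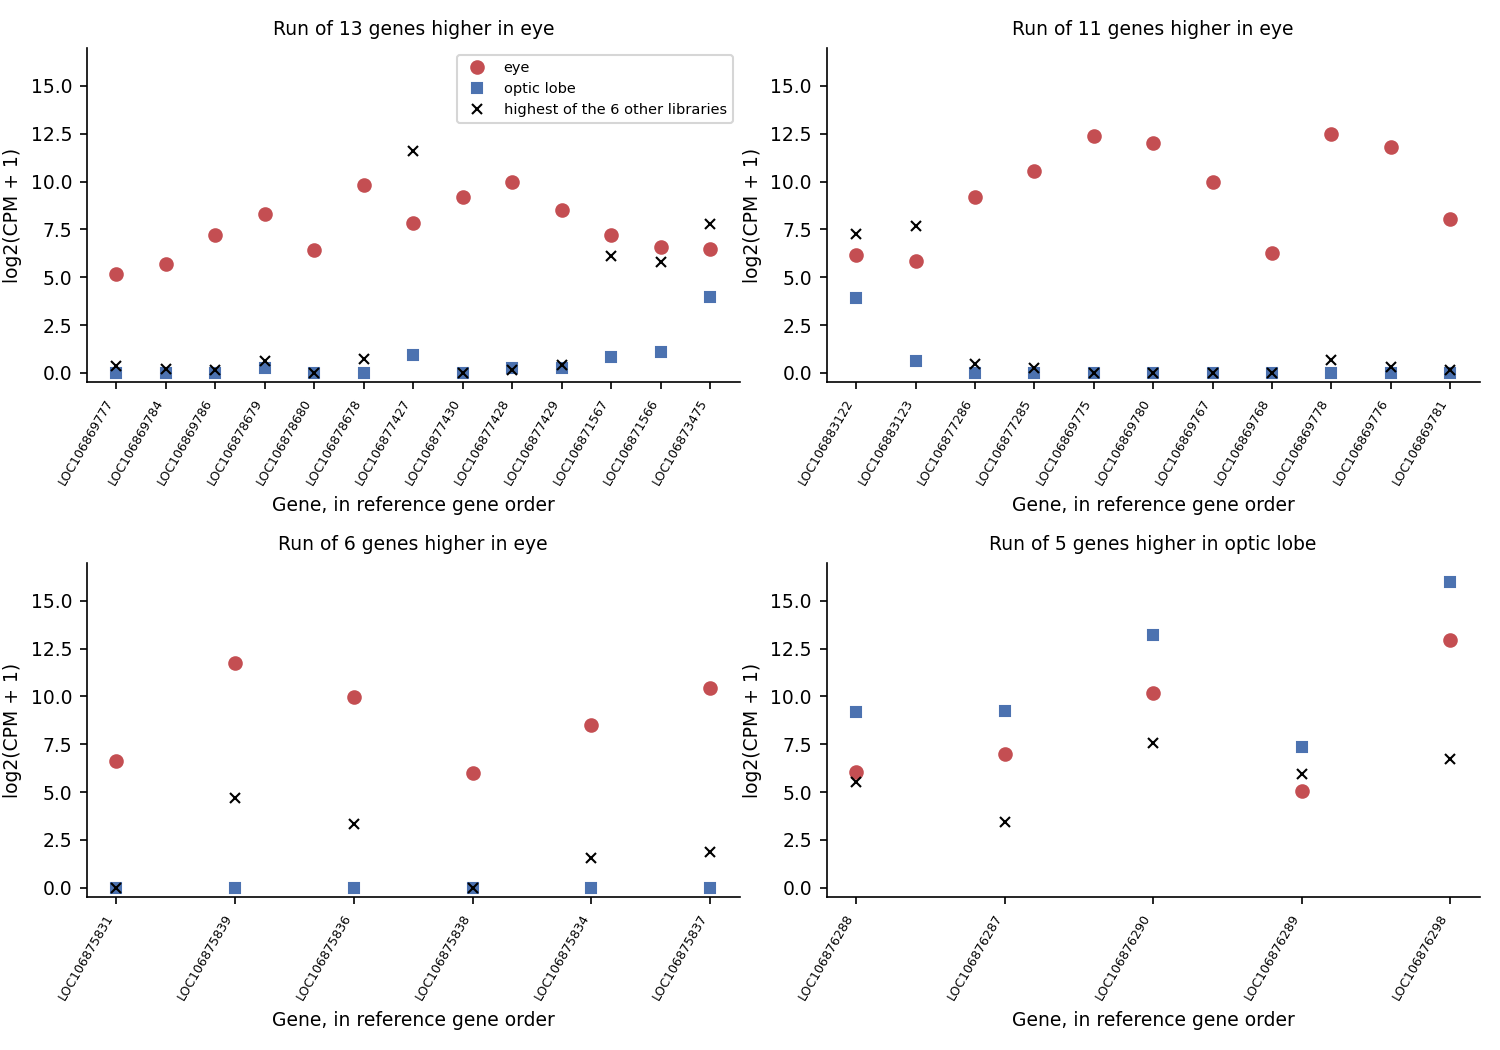
Levels as log2(CPM + 1) of genes in 4 runs of direct neighbours, in reference gene order, in eye (red circles), optic lobe (blue squares) and the highest of the 6 other libraries (crosses). In the run of 11, 9 genes have no read in optic lobe and stay under 1 CPM in every other library, while in the run of 5 lobe-high genes the eye has at least 32.4 CPM of each.

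Set beside the other library pairs, eye and optic lobe differed less than optic lobe and any non-visual library. Under the same rule 23.7% of the genes tested differed between eye and optic lobe, which was the 12th of 28 pairs. Optic lobe differed from the 6 other libraries in between 30.96% and 38.0% of the genes tested. Eye differed from them in between 20.3% (statocyst) and 23.5% (mantle skin), slightly below its value with optic lobe. Optic lobe was the lower library for 87.4% of the differing genes with eye and for between 74.1% and 77.7% with the 6 others. These pairs share libraries and are given as values side by side.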

How the data were processed

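Bulk RNA of octopus tissues was sequenced by the submitters from Kapa mRNA HyperPlus libraries, per the labels' protocols. Trim Galore and kallisto are named in the submitters' processing notes; how lanes were merged, and which versions, build and annotation were used, is not stated there. The authors deposited log2(CPM + 1) for 15842 genes in 1 column per library, a unit read from the deposited values: after inversion every column summed to 1000000, and 100% of values were whole multiples of 1 read within 0.01 reads. Reads and totals were recovered from these multiples, so counting intervals treat them as reads. They carry no stated molecular identifiers, and intervals and floors (3 reads) cover counting error only.

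A gene was called with at least 10 CPM in eye or optic lobe and 4-fold on log2(CPM + 1), which understates ratios of low genes; printed ratios carry no pseudocount. Levels have exact Poisson, ratios exact Clopper-Pearson and shares Wilson intervals at 95%. The 2 lanes of a library are not replicates, so no test was made. Genes described are, per direction, the 5 with the largest ratio, the 5 most abundant, the 2 on either side of the threshold, the 3 with the largest ratio among those under 1 CPM in the 6 other libraries, the highest in each other library, and the 2 with a functional name; genes of neighbour runs and medians of groups were added after values were seen. Members and rules were chosen with earlier results of these data known. Planned gene lists, cell type markers, protein families and promoter motifs needed names or sequences and were not applied. Of the identifiers, 14305 were found in the reference table and 13929 placed on chromosomes. Calling was tested on simulated data. Alternatives were a pseudocount of 0.1 or 5 CPM, a floor of 50 CPM or none, median-of-ratios size factors of the 2 libraries, totals without the 10 most abundant genes of each, thinning and a counting bound. Python 3.11.15, numpy 2.4.6, pandas 2.3.3, scipy 1.17.1 and matplotlib 3.10.9 were used.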

Additional observations from a re-analysis of the deposited data

How the results depend on the processing

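Counts of eye-high and lobe-high genes stayed within 1.5 times of 1767 and 255 with a pseudocount of 0.1 CPM, without a floor, with thinning and with a counting bound of 4-fold. Raising the floor to 50 CPM tests fewer genes and left 895 eye-high genes, and raising the pseudocount to 5 CPM lowers the ratios of weakly expressed genes and left 168 lobe-high genes. Median-of-ratios size factors, which move all ratios towards optic lobe, gave 520 lobe-high genes, and totals without the most abundant genes gave 389. The share of eye reads in eye-high genes, 38.1%, became 35.9% with the floor of 50 CPM, 35.5% with size factors and 36.6% with a pseudocount of 5 CPM. The share of optic lobe reads in lobe-high genes, 27.2%, became 27.0%, 38.6% and 26.4%. None of the 34 described genes changed direction under the pseudocount, scaling and thinning alternatives, but 6 of the 29 that had passed lay under 4-fold in at least 1 of them: LOC106880336, LOC106880385 and 4 taken from just inside the threshold. LOC106881559 and LOC106875485 became 1.61 and 1.63 with size factors, LOC106884438 and LOC106872507 became -1.97 and -1.98 with thinning, and LOC106880385 became -1.83 with thinning. No paired analysis was possible because each tissue has 1 library, whose 2 lanes are merged in the table, and for the same reason no replicate could be left out. Of the compared pair, optic lobe is the shallower: 0 reads allow up to 0.686 CPM there. Mantle skin is shallower still, with 3 reads worth 0.627 CPM.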

Other observations

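The 1767 eye-high genes took 27.5% of the reads of mantle skin, 23.6% of statocyst, 23.1% of sucker rim cells, 22.6% of olfactory organ, and 22.5% and 22.8% of the automated and manual whole sucker libraries. Their median level in these libraries was below that of all genes tested, on log2(CPM + 1) 4.28 against 5.08 in mantle skin, 4.51 against 5.25 in olfactory organ and 5.09 against 5.40 in statocyst, and single abundant genes such as LOC106873795 weigh on the shares. In mantle skin 1067 of them had at least 10 CPM and in statocyst 1214. The 255 lobe-high genes took between 1.18% of the reads in statocyst and 2.55% in olfactory organ. As shares of the genes tested, the eye-high and lobe-high sets were 20.7% and 2.99%.

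A run of 4 eye-high neighbours held LOC106875178, LOC106875179, LOC106875182 and LOC106875180, none with a read in optic lobe. LOC106875179 had 2472 CPM in mantle skin, 2049 CPM in sucker rim cells, 179.6 CPM in eye and 0.198 CPM in statocyst. LOC106875180 had 352 CPM in eye and at most 1.05 CPM in any other library. In a run of 5, LOC106868320 and LOC106868323 had 2035 and 2681 CPM in eye, 100.3 and 108 CPM in optic lobe and 3474 and 4089.7 CPM in mantle skin, while olfactory organ had 21.6 and 17.5 CPM. These genes were chosen after their values were seen.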
